A study of Gossypium with 24 samples.

Results

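The 24 h that follow a flood were described here in roots of 9001, a cotton variety (Gossypium hirsutum) whose submitters call it tolerant of waterlogging. The members were chosen by label alone and are 6 of the series' 24 libraries, 3 of flooded plants at 24 h and 3 of flooded plants at 0 h. Per the series' design text, seedlings at the 4-leaf stage stood waterlogged for 96 h in darkness. Flooded plants were sampled after being drained and lit again for 24 h (flooded 9001, 24 h) or directly when the dark flooding ended (flooded 9001, 0 h). Controls of 9001 spent the same 96 h in darkness without flooding and were sampled after 24 h of light (control 9001, 24 h) or at the end of the dark period (control 9001, 0 h). The same 4 groups exist for 4847, the variety described as sensitive to flooding. Darkness was therefore shared by every group, and drainage and light returned together in the flooded plants. Each group had 3 root libraries. Nothing in the labels says that they are separate plants. The p-values therefore measure the spread between libraries alone, and that spread may be technical. In bulk roots, fewer cells of a type and less RNA per cell cannot be told apart.

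Standing water cuts the supply of oxygen to roots. As general background, plant cells short of oxygen turn from respiration to glycolysis with fermentation, make less ATP and switch on a set of anaerobic response genes, while growth and cell wall synthesis slow down. When water drains and air returns, respiration can restart, and a burst of reactive oxygen species accompanies the change. The study's title names GABA, an amino acid derivative made from glutamate whose breakdown feeds the citrate cycle, as a regulator of energy metabolism in this phase. Upland cotton is an allotetraploid with A and D chromosomes, so that many genes exist as an A and a D copy. The deposited tables list gene IDs only, with no names or functions. Genes of fermentation or the GABA shunt were therefore not looked up, and the tissue label was not set against root marker genes. Genes were instead grouped by how they behaved in other libraries of the series, and 4 IDs were described singly.

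Flooded 9001 had 37093533 ± 250665 counts per library at 24 h and 36970330 ± 404853 at 0 h (SD, n = 3 each). The biological coefficient of variation, edgeR's estimate of how much replicates differ beyond counting error, was 6.59% at 24 h and 11.4% at 0 h. Differences were tested with edgeR's quasi-likelihood test on counts of 50638 genes, with Benjamini-Hochberg adjustment and TMM scaling, which sets the bulk of moderately changed genes near 0. A gene was called when its adjusted p was under 0.05 and its fitted change at least 2-fold. The scaling mattered here because the makeup of the libraries differed so much. The median log2 fold change of all tested genes (24 h over 0 h) was 0.26 with TMM and 1.31 with library totals as the only scaling. That shift applies to every change of level in flooded 9001 below. Changes in other groups, and differences between changes, shift by other amounts. Shares of library counts, given alongside, do not depend on it.

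Most measured genes changed at least 2-fold within the 24 h. Of the 50638 genes tested, 30070 (59.4%) did so in flooded 9001, of which 17381 (34.3% of those tested) were higher and 12689 (25.1%) lower at 24 h than at 0 h. Without the limit on fold, 22108 (43.7%) were higher and 18131 (35.8%) lower. Among large changes, rises outnumbered falls, with 4022 against 1469 genes at 16-fold or more and 1416 against 300 at 64-fold or more. When library totals were the only scaling, the 2-fold counts were 27339 higher and 5865 lower. Under all 4 scalings tried, 16909 genes were called as higher and 5865 as lower. In 9001 controls over the same hours, 13355 genes rose (26.4% of those tested) and 8518 fell (16.8%).

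**Figure D1:**
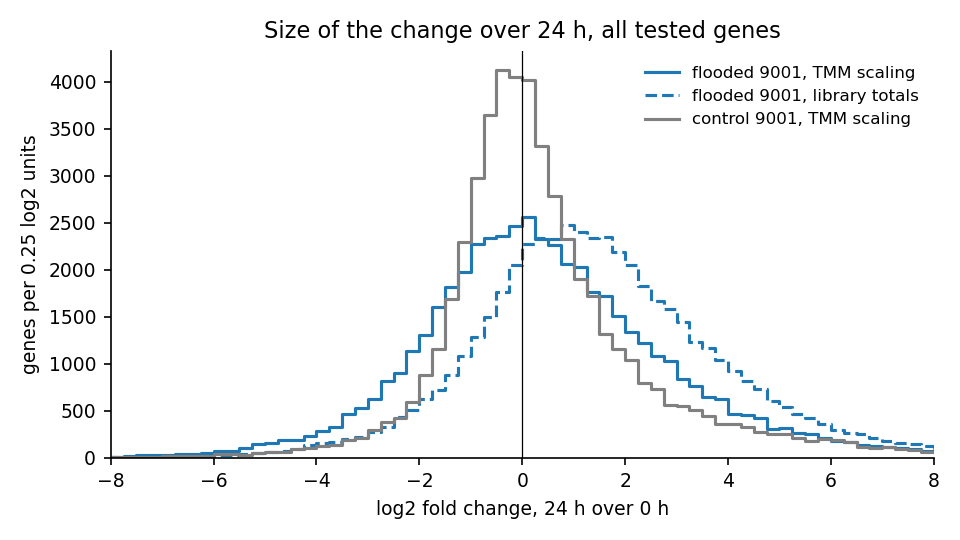
Number of genes (y axis, per 0.25 log2 units) by log2 fold change of 24 h over 0 h (x axis), for flooded 9001 with TMM scaling (solid blue) and with library totals (dashed blue) and for control 9001 with TMM scaling (grey). The flooded curve is wider than the control curve, and library totals move it to the right, from a median of 0.26 to 1.31.

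The leading genes of flooded roots differed between 24 h and 0 h. None of the 10 most abundant IDs at 24 h was among the 10 most abundant at 0 h, and 21 of the top 100 were shared. The 10 leading IDs of 0 h held 0.682% of counts at 24 h, against 5.93% at 0 h. They held 0.153% in 24 h controls and 0.545% in 0 h controls. Their successors, the 10 leading IDs of 24 h, held 2.85% of counts at 24 h and 0.218% at 0 h. In 24 h controls, which had also passed into the light, these successors held 0.153%, and in 0 h controls 0.339%. Both lists were chosen on these libraries, so the shares describe them and test nothing.

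Ghir_D04G011360, an ID of chromosome D4 with a gene length of 3935 bases, was the most abundant ID of flooded 9001 at 0 h. It had 1201, 1216 and 1118 CPM (counts scaled to a common library size, with TMM) in the 24 h libraries, against 16933, 19686 and 18177 CPM in the 0 h libraries. By counts it ranked 21 at 24 h and 1 at 0 h. All 24 h libraries lay far below all 0 h libraries, a 15.5-fold fall (log2 fold change -3.95, SE 0.04, edgeR adjusted p = 1.34e-47). At 24 h it still stood above the controls, which averaged 242.7 ± 2.45 CPM at 24 h and 187.6 ± 3.22 CPM at 0 h (SD, n = 3 each). Over the same hours it rose by 0.37 on the log2 scale in controls (SE 0.04, edgeR adjusted p = 1.73e-11), and the difference between the flooded and the control change was -4.33 (SE 0.06, edgeR adjusted p = 3.22e-44).

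Ghir_D01G005940, on chromosome D1 and 1516 bases long, ranked 50 at 24 h and 2 at 0 h. Its level was 705, 713 and 719 CPM at 24 h and 12479, 13869 and 13429 CPM at 0 h, with no overlap. The fall was 18.6-fold (log2 fold change -4.22, SE 0.04, edgeR adjusted p = 2.76e-49). Unlike the first ID, it fell in control roots by a like factor, to 32 ± 1.70 CPM at 24 h, against 700.5 ± 12.5 CPM at 0 h (log2 fold change -4.45, SE 0.04, edgeR adjusted p = 2.93e-49). The 712 ± 6.74 CPM of flooded roots at 24 h lay beside the 700.5 ± 12.5 CPM of control roots at 0 h, a pair that was not tested. The flooded change exceeded the control change by 0.23 on the log2 scale (SE 0.05, edgeR adjusted p = 0.000136). That call was lost with RLE scaling (0.04, edgeR adjusted p = 0.496) and with DESeq2 (0.04, adjusted p = 0.530).

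Ghir_D10G016490, on chromosome D10 and 1432 bases long, had the largest gain in CPM among genes that rose at least 4-fold. It had 2944, 3265 and 2778 CPM at 24 h and 24.4, 30.8 and 25.3 CPM at 0 h. Every 24 h library exceeded every 0 h library, and the rise was 112-fold (log2 fold change 6.80, SE 0.09, edgeR adjusted p = 7.53e-44). Controls averaged 73.1 ± 11.3 CPM at 24 h and 27.9 ± 0.854 CPM at 0 h, a smaller rise (log2 fold change 1.39, SE 0.08, edgeR adjusted p = 3.67e-20). The flooded change exceeded the control change by 5.41 on the log2 scale (SE 0.12, edgeR adjusted p = 7.48e-36). By counts it moved to rank 2 at 24 h, against rank 9294 at 0 h.

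Ghir_D05G024630, on chromosome D5 and 1382 bases long, also rose more in flooded than in control roots. It had 2518, 2030 and 2714 CPM at 24 h and 12.1, 15.7 and 13.8 CPM at 0 h, again without overlap, a 175-fold rise (log2 fold change 7.45, SE 0.10, edgeR adjusted p = 1.30e-43). In controls it averaged 92.1 ± 2.61 CPM at 24 h and 9.13 ± 0.771 CPM at 0 h. This control rise (log2 fold change 3.33, SE 0.09, edgeR adjusted p = 2.03e-31) was larger than the 1.39 of Ghir_D10G016490. The difference between the flooded and the control change was 4.11 on the log2 scale (SE 0.14, edgeR adjusted p = 4.14e-28). No control library of either variety had more than 98.6 CPM of either riser. Flooded 4847 at 24 h had 1172 ± 30.7 CPM of Ghir_D10G016490 and 3194 ± 338 CPM of Ghir_D05G024630.

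**Figure D2:**
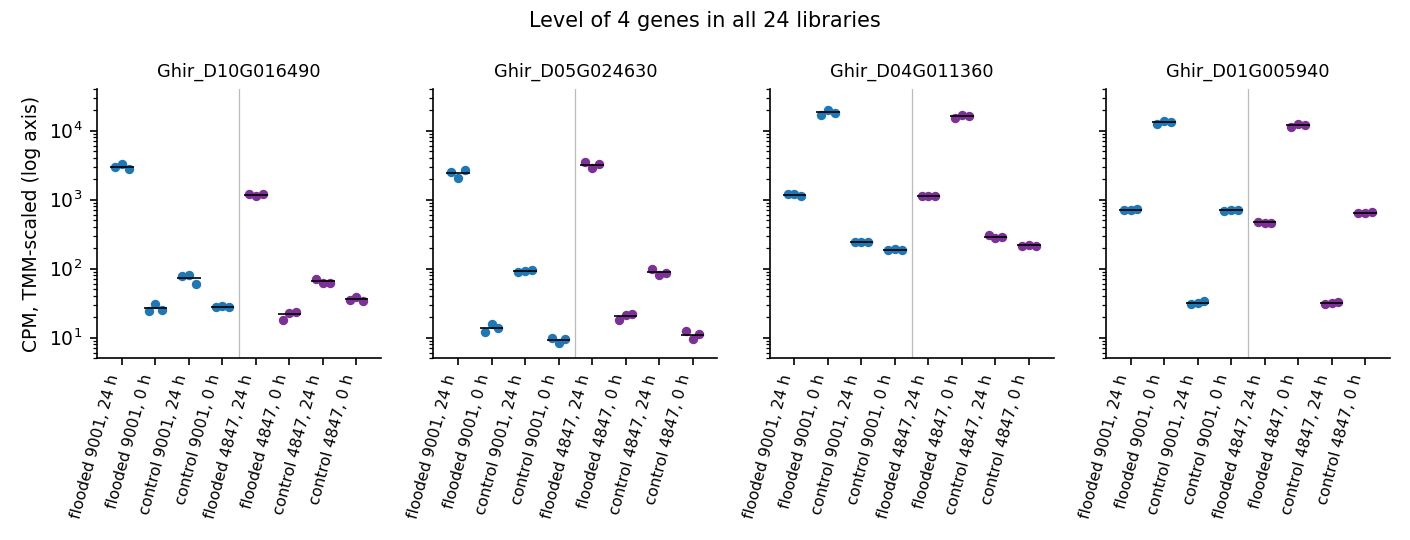
TMM-scaled CPM (log axis) of the 4 described IDs in each of the 24 libraries, 9001 in blue and 4847 in purple, with a bar at the mean of 3 libraries. The left pair of panels shows IDs that are high at 24 h in flooded roots of both varieties, and the right pair shows IDs that peak at 0 h, of which Ghir_D01G005940 is also low in controls at 24 h.

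As counts left the few dominant genes, they spread over many more. At 24 h, 2930 ± 39.7 IDs made up 50% of a library's counts, against 1031 ± 24.5 at 0 h (SD, n = 3 each). The most abundant 100 IDs held 11.3% ± 0.0683 at 24 h and 19.6% ± 0.255 at 0 h. With every library thinned to 21000000 counts, 43599 ± 50.1 IDs had at least 10 counts at 24 h and 35441 ± 182 at 0 h. The 24 h and 0 h libraries did not overlap in any of these measures (exact two-sided permutation test, p = 0.1 for each, and 3 against 3 cannot go lower). By number of IDs holding 50% of counts, flooded roots at 24 h lay between controls at 24 h (3680 ± 18.6) and controls at 0 h (2239 ± 43.2).

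**Figure D3:**
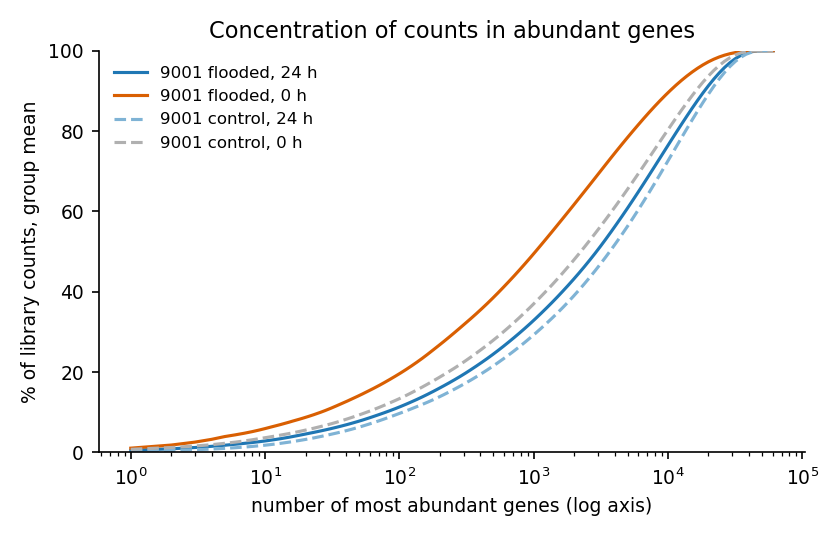
Cumulative share of library counts (y axis, group mean of 3 libraries) held by the most abundant genes (x axis, log scale) in flooded (solid) and control (dashed) 9001 roots. The curve of flooded roots at 0 h lies to the left of the other 3, and at 24 h flooded roots lie between the controls at 24 h and at 0 h.

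Some genes without any count at 0 h were measurable at 24 h, and most of those that reached 1 CPM were also above it in 24 h controls. In flooded 9001 at 0 h, 7090 IDs had no count in any of the 3 libraries, and 4238 of these had counts at 24 h. Of these, 282 reached a mean of at least 1 CPM and 28 at least 5 CPM, the highest at 26.0 CPM. Among the 282, the mean was at least 1 CPM in controls for 202 at 24 h and for 43 at 0 h. In the other direction, 4823 IDs had no count at 24 h, 1971 of these had counts at 0 h, and 26 had at least 1 CPM there. Raw totals of the libraries were nearly equal, but their TMM factors were not (0.574 to 0.593 at 0 h, 1.21 to 1.23 at 24 h). A given CPM therefore stood for fewer counts at 0 h than at 24 h, which makes absence of counts likelier at 0 h. Since these IDs were chosen on their counts in the compared groups, their numbers are a description.

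The question of how far the response to flooding was undone was addressed with genes chosen in the other variety, so that no compared library chose them. Flooding for 96 h raised 12675 genes (25% of those tested) and lowered 13757 (27.2%) at least 2-fold in 4847 at 0 h. In flooded 9001, 8217 of the 12675 raised genes (64.8%) fell from 0 h to 24 h and 1155 (9.11%) rose, against 25.1% and 34.3% of all tested genes. Their median log2 fold change was -1.68, which is -1.93 relative to the median of all genes. With library totals alone, 4994 (39.4%) fell and 2248 (17.7%) rose, against 5865 and 27339 of all tested genes. Of the 13757 lowered genes, 9557 (69.5%) rose and 339 (2.46%) fell. Their median was 1.91, or 1.65 relative to all genes. Library totals alone gave 12231 (88.9%) rising and 100 (0.727%) falling. When genes lacking any count in 1 of the compared groups were set to a bound of 3 counts over that group, these medians were -1.68 and 1.87.

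By shares of counts the return was large and incomplete. The genes raised by flooding in 4847 held 27.4% ± 0.0454 of counts in flooded 9001 at 24 h and 66.4% ± 0.0873 at 0 h, against 19.7% ± 0.0924 in 24 h controls and 18.8% ± 0.0130 in 0 h controls (SD, n = 3 each). The genes lowered by flooding held 24.4% ± 0.0480 at 24 h and 4.37% ± 0.0138 at 0 h, against 34.1% ± 0.154 and 34.1% ± 0.0257 in 24 h and 0 h controls. None of the 4 groups overlapped in the first share, and in the second only the 2 control groups did. For either share in flooded roots, 24 h against 0 h gave p = 0.1 in the exact two-sided permutation test, its lower limit here. Expressed as the way from flooded roots at 0 h to control roots at 24 h, the summed share of the raised genes had covered 83.5% ± 0.0973 and that of the lowered genes 67.2% ± 0.161 (SD over the 3 flooded 24 h libraries). Since shares of 1 library sum to a whole, these 2 figures are not independent. Single genes varied. Of raised genes with at least 1 CPM in some 9001 group, 64.2% lay between these 2 groups with TMM. Another 25.1% had passed the control and 10.7% had moved away. For lowered genes these were 63.3%, 28.4% and 8.31%. With library totals alone, 49.8% of raised and 78.0% of lowered genes lay between.

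**Figure D4:**
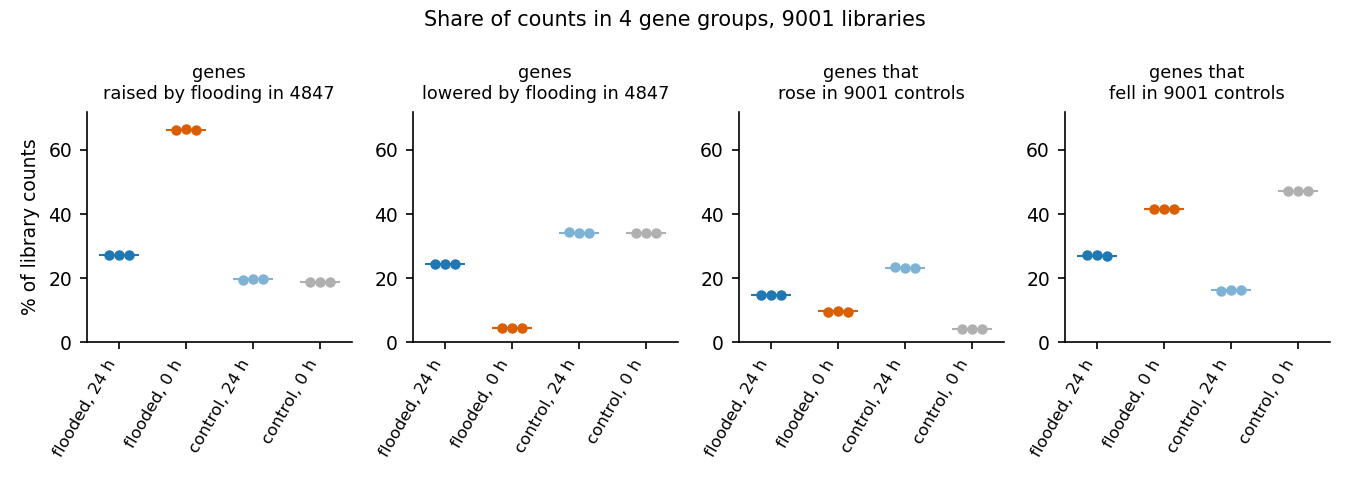
Share of library counts (y axis, %) in 4 groups of genes for the 12 libraries of 9001. Points are libraries and bars are means of 3. In the left pair of panels, flooded roots at 24 h lie between flooded roots at 0 h and both control groups, and in the right pair between flooded roots at 0 h and controls at 24 h.

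Genes that rose in controls after the dark period also rose in flooded 9001 more often than they fell. Genes that fell in controls fell more often than they rose with TMM but not with library totals alone. Relative to all genes, they leaned to falling with both. The shares of counts of both groups moved less in flooded roots than in controls. Since the control libraries chose these groups, a large move in controls was built in, and the contrast tests nothing. Of the 13355 genes that rose in 9001 controls, 7602 (56.9%) rose and 1805 (13.5%) fell in flooded 9001. Their median log2 fold change was 1.89 (1.64 relative to all genes), or 1.65 with the bound for genes lacking counts used above. These genes held 14.7% ± 0.0434 of counts in flooded roots at 24 h and 9.62% ± 0.0965 at 0 h, against 23.3% ± 0.0670 in controls at 24 h and 4.05% ± 0.0179 at 0 h. Of the 8518 genes that fell in controls, 3962 (46.5%) fell and 1249 (14.7%) rose in flooded 9001. Their median was -0.90, or -1.15 relative to all genes. With library totals alone the order turned, with 1913 (22.5%) falling, 2566 (30.1%) rising and a median of 0.16. With that scaling 11.6% of all tested genes fell and 54.0% rose, and relative to all genes the median was -1.16. They held 27.1% ± 0.0226 of counts in flooded roots at 24 h and 41.5% ± 0.0659 at 0 h, against 16.2% ± 0.0425 in controls at 24 h and 47.2% ± 0.0879 at 0 h. The flooded and control comparisons share no library. As a description over 50638 genes, whose values share libraries and depth, Pearson's r between both log2 fold changes was 0.37.

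Crossing both groupings, flooding in 4847 and time in 9001 controls, split the tested genes into 9 classes whose changes in flooded 9001 were graded. The 3255 genes lowered by flooding that also rose in controls had the highest median log2 fold change, 3.47, and 2905 of them (89.2%) rose. At the other end, the 2010 genes raised by flooding that fell in controls had a median of -2.58, and 1747 (86.9%) fell. Where only flooding had moved the genes, medians were 1.77 for the 7854 lowered and -1.79 for the 6682 raised genes. Where only time had moved them, medians were 2.24 for the 6117 risers and -1.06 for the 3860 fallers of controls. With the bound for genes lacking counts used above, the medians were 1.74 and -1.79 where only flooding had moved the genes. They were 1.85 and -1.05 where only time had. With library totals alone, the median of these 3860 fallers was 0.0017, with 467 genes falling and 610 rising, against 1979 and 176 with TMM. Relative to all genes it was -1.31 with either scaling.

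Genes pulled in opposite ways had intermediate medians. The 3983 genes raised by flooding that rose in controls had a median of -0.58, with 1573 (39.5%) falling and 864 (21.7%) rising. With library totals alone this turned, to a median of 0.48 with 903 falling and 1518 rising. Relative to all genes, the median of this class was -0.835 with either scaling. The 2648 genes lowered by flooding that fell in controls had a median of 0.66, with 1016 (38.4%) rising and 236 (8.91%) falling. Relative to the median of all genes, the medians of the 9 classes ran from -2.84 to 3.22.

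**Figure D5:**
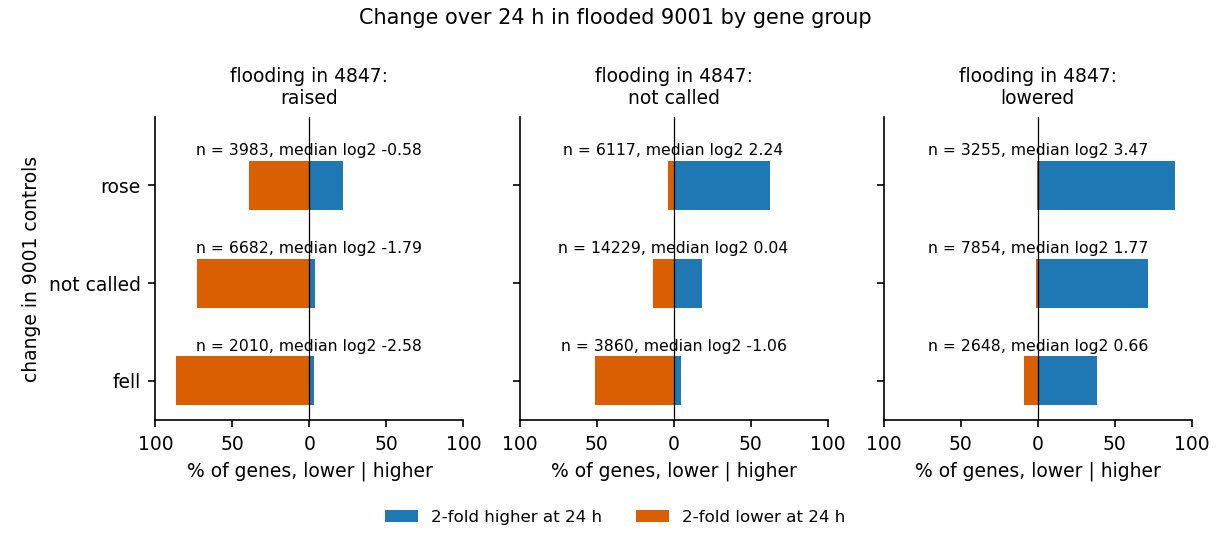
Percentage of genes 2-fold higher (blue, to the right) and 2-fold lower (orange, to the left) at 24 h than at 0 h in flooded 9001, by the effect of flooding in 4847 at 0 h (panels) and the change in 9001 controls (rows), with the number of genes and median log2 fold change of each class. The median goes down from 3.47 for lowered genes that rose in controls to -2.58 for raised genes that fell in controls.

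The change in flooded 9001 was also set against that in controls gene by gene. The change over 24 h was at least 2-fold higher in flooded than in control roots for 14391 genes (28.4% of those tested) and lower for 11262 (22.2%) by edgeR. Library totals alone gave 20429 and 7762, and RLE scaling 12648 and 12618. Among genes that flooding had lowered in 4847, which share no library with this test, 9803 of 13757 (71.3%) had the higher change in flooded roots and 327 (2.38%) the lower. Of the genes raised by flooding, 487 of 12675 (3.84%) had the higher change and 8251 (65.1%) the lower. Of the 24206 genes that flooding had not moved 2-fold in 4847, 4101 (16.9%) were higher and 2684 (11.1%) lower.

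Some genes were higher in flooded roots at 24 h than in every other 9001 group. At that time, 1709 of 44012 IDs with at least 1 CPM in some 9001 group (3.88%) stood at least 2-fold above each of flooded 0 h, control 24 h and control 0 h roots. For 1705 of them no 24 h library overlapped any library of the other 3 groups. The 2-fold gap between means that chose them made this likely, so it tests nothing. Together they held 13.9% of counts in flooded roots at 24 h and 0.961% at 0 h, against 2.88% in 24 h controls and 2.00% in 0 h controls. Both Ghir_D10G016490 and Ghir_D05G024630 met this condition by their values above. Selection was on these libraries, but 4847 offers others: 985 of the 1709 (57.6%) were also highest by 2-fold at 24 h in flooded 4847, where 2428 of 43646 IDs (5.56%) were, and 2 were lowest by 2-fold there. With library totals alone, 1954 IDs stood above in 9001, and 1080 of these (55.3%) did so in 4847. Troughs were fewer, with 541 IDs at least 2-fold below each other 9001 group, of which 220 (40.7%) were also lowest in 4847, against 3.06% of IDs there. With library totals alone there were 281 troughs, of which 137 (48.8%) were also lowest in 4847, against 3.38% of IDs there.

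Most genes that changed in flooded 4847 changed the same way in flooded 9001. In flooded 4847, 13936 genes rose (27.5% of those tested) and 11813 fell (23.3%). Both varieties had 10825 risers in common, 62.3% of the 9001 risers and 77.7% of the 4847 risers. They had 8751 fallers in common, 69.0% of the 9001 fallers and 74.1% of the 4847 fallers. Another 407 genes rose in 9001 and fell in 4847, and 176 fell in 9001 and rose in 4847. Flooded 4847 at 24 h had the smallest libraries of the series, at 22035053 ± 539319 counts (SD, n = 3), and the largest coefficient of variation, 14.4%. All groups shared 1 spread per gene in the fit, so p-values involving these libraries may be too small. Flooded 9001 at 0 h (11.4%) also stood above the controls (5.8% to 7.2%), and the same may hold for its p-values. With only the compared groups in the fit, the change of Ghir_D04G011360 in flooded 9001 had an edgeR adjusted p of 6.31e-25, against 1.34e-47. That fit also had fewer residual degrees of freedom, so this pair cannot show how much the unequal spread matters.

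The difference between varieties in this change was tested directly. By edgeR it was at least 2-fold higher in 9001 than in 4847 for 7488 genes (14.8% of those tested) and lower for 5677 (11.2%). These counts were 14543 and 2183 with library totals alone. Genes that rose in 9001 controls, chosen without flooded libraries, leaned to the higher side, with 3522 of 13355 (26.4%) higher and 751 (5.62%) lower in 9001. Their median log2 fold change was 1.89 in flooded 9001 and 0.64 in flooded 4847, and 2.92 and 1.08 with library totals. The 8518 genes that fell in controls leaned to the lower side with TMM, with 570 (6.69%) higher and 2011 (23.6%) lower in 9001. Their median difference between varieties was -0.41 with TMM and turned to 0.20 with library totals alone. For genes not called in controls, this median was -0.011 with TMM and 0.59 with library totals alone. Ghir_D10G016490 rose more in 9001, by 1.04 on the log2 scale (SE 0.12, edgeR adjusted p = 5.91e-10). Ghir_D01G005940 fell less in 9001, by a difference of 0.47 (SE 0.05, edgeR adjusted p = 1.40e-10). Ghir_D05G024630 (difference 0.17, SE 0.14, edgeR adjusted p = 0.328) and Ghir_D04G011360 (-0.09, SE 0.05, edgeR adjusted p = 0.148) did not pass. The first passed with upper-quartile scaling (0.33, edgeR adjusted p = 0.0375) and with library totals alone (0.78, edgeR adjusted p = 4.31e-06). The second turned to 0.51 with library totals alone (edgeR adjusted p = 6.40e-13) and passed at -0.15 without flooded 9001 at 0 h, replicate 1 (edgeR adjusted p = 0.0153).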

How the data were processed

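RNA sequencing libraries of cotton roots were analysed from 2 tables of the whole series. The deposited count table holds raw whole-number counts for 60633 gene IDs. The deposited FPKM table holds the authors' FPKM, which equal counts per column total and gene length within a relative difference of 1e-06 for 60632 IDs. The remaining line was malformed and left out of FPKM alternatives. Gene lengths come from that relation. The sources used here do not name an aligner, counting tool or strand setting. The submitters' processing notes name mm10, a mouse assembly, and the build that the cotton IDs come from is unknown. Reads of near-identical A and D copies may be split uncertainly, and a gene cannot be told from its overlapping or antisense partner. Per the labels' protocols, libraries were made from total RNA with a SMARTER mRNA kit.

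The count tests used edgeR 4.0.16 in R 4.3.3 (glmQLFit and glmQLFTest after filterByExpr and TMM). All 24 libraries entered 1 fit of 8 group means, which left 16 residual degrees of freedom. An SE is the log2 fold change divided by the square root of F, and is approximate. The test was tried on simulated data first. There few genes changed, as many up as down, so the trial cannot speak to scaling where most genes change. Alternatives were RLE, upper-quartile and no scaling beyond totals, no filter, DESeq2 1.42.0, limma 3.58.1 on log2(FPKM + 1) and log2(FPKM + 0.1), only the compared groups, a replicate block and each library left out. Single values per library were compared by two-sided exact permutation (scipy 1.17.1). Totals ran from 21423479 to 39945111 counts per library, and the depth limits what genes of few counts can show.

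The IDs named are the 2 with the largest gain and the 2 with the largest loss in mean CPM from 0 h to 24 h, among genes with adjusted p under 0.05, at least a 4-fold change and no overlap of libraries. Lists of named pathways were planned by gene description and could not be applied, since nothing pairs the IDs with names. The groups of genes and the members were chosen with earlier results of these data known.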

Additional observations from a re-analysis of the deposited data

Results flagged for a closer look

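The change over 24 h in flooded 9001 differed from that of its controls for 14391 genes with the higher and 11262 with the lower change, and from that of flooded 4847 for 7488 with the higher and 5677 with the lower change in 9001. Both pairs of counts come from tests of the difference itself (edgeR, adjusted p under 0.05, at least 2-fold).

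The same test of the difference picked out single IDs, at an adjusted p under 0.05. Of the 4 described, Ghir_D10G016490 differed from controls by 5.41 and from 4847 by 1.04 on the log2 scale. For Ghir_D05G024630 the difference from controls was 4.11. For Ghir_D04G011360 it was -4.33. For Ghir_D01G005940 the differences were 0.23 from controls and 0.47 from 4847, the first of which did not pass with RLE scaling or DESeq2 (0.04 in each).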

How the results depend on the processing

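Leaving out each of the 6 flooded 9001 libraries in turn gave 17036 to 17226 risers and 12634 to 12718 fallers, and medians of -1.69 to -1.67 for genes raised and 1.90 to 1.93 for genes lowered by flooding in 4847, 1.89 to 1.97 for control risers and -0.91 to -0.89 for control fallers. Library totals alone gave 27339 risers and 5865 fallers at 2-fold, and 9577 fallers at any fold. The difference from 4847 was then higher for 14543 and lower for 2183 genes. The 4 medians, in the order just given, were -0.62, 2.96, 2.92 and 0.16, so that the last changed sign. The median of all tested genes was then 1.31. They were -1.73, 1.86, 1.84 and -0.95 with RLE and -1.49, 2.10, 2.09 and -0.70 with upper-quartile scaling. With limma on log2(FPKM + 1), 3844 genes fell 2-fold and 9611 at any fold, 5916 had a lower change than controls and 1442 than 4847, and the medians were -0.32, 1.25, 0.62 and 0.071. With limma on log2(FPKM + 0.1), 5526 fell 2-fold and 9527 at any fold, the difference from 4847 was higher for 16495 and lower for 2257, and the medians were -0.56, 2.40, 1.80 and 0.14. Both FPKM tables are scaled by library totals, which moves all changes up, and a pseudocount shrinks those of low genes. Genes chosen by a 4-fold call had medians of -2.19, 2.63, 2.15 and -1.05. The difference from 4847 of Ghir_D04G011360, -0.09, changed sign to 0.070 with upper-quartile scaling, 0.51 with library totals and 0.51 with either FPKM setting, and that of Ghir_D05G024630 passed the test in those 4 settings (0.33 to 0.78). Without flooded 9001 at 0 h, replicate 1, the first of these passed at -0.15. All 4 IDs kept the direction and call of their own change in flooded 9001 in every setting. The counts of genes changed, or changed differently from controls or 4847, stayed within 1.5 times in the other settings run. Counts within gene groups, and of peaks and troughs, were rerun with library totals alone and many moved by more. The groups called in 4847 or in controls stayed as called with TMM and were not chosen again with another scaling. The counts of differences from controls and from 4847 within gene groups were not rerun. Same-numbered flooded libraries at 24 h and 0 h did not deviate together (correlations of -0.022, 0.015 and 0.0029). This cannot settle whether the numbers pair them, on which the labels are silent. The replicate block gave 17306 risers and 12621 fallers.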

Other observations

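Abundant genes fell more often than rare ones. With the tested genes split into 5 equal parts by mean CPM over all 24 libraries, in the top part 45.0% fell and 17.7% rose in flooded 9001, against 17.8% and 48.7% in the part next to the lowest. The medians of these parts were -0.81 and 0.96 with TMM and 0.26 and 2.02 with library totals alone. Controls had the same order, with medians of -0.53 and 0.59. In the lowest part, 18.7% fell and 36.6% rose in flooded 9001. The mean CPM includes the compared libraries, so the parts and the changes are linked.

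The longest genes rose less often than the other parts by length. In the longest of 5 equal parts, 3037 to 17331 bases, 27.9% rose and 29.6% fell, against 38.6% and 22.5% in the part of 1120 to 1640 bases and 34.3% and 26.3% in the shortest part, so that the order with length was not steady. The order with length did not hold at every abundance: in the abundance parts from 0.86 to 3.19 CPM and from 3.19 to 8.43 CPM the longest genes had medians of 0.95 and 0.68, against 0.51 and 0.15 for the shortest, and in the top part -1.04 and -0.53. The count-weighted mean gene length was 2393 ± 5.20 bases in flooded 9001 at 24 h and 2600.3 ± 10.9 at 0 h (SD, n = 3 each), without overlap (exact two-sided permutation p = 0.1, the smallest possible). RNA integrity was not given in the sources used here, and its part was not tested.

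A and D chromosomes were called at similar rates, with 34.2% of A and 34.4% of D genes rising and 25.3% and 24.9% falling. Across the 26 chromosome labels the share that rose ran from 31.3% on A8 to 37.9% on D3. By counts, A chromosomes held 48.2% ± 0.0356 of flooded 9001 libraries at 24 h and 49.4% ± 0.0747 at 0 h, without overlap.

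IDs next to each other in number changed alike somewhat more often than distant ones. The correlation of log2 fold changes was 0.12 for tested IDs that follow each other on a chromosome label, 0.049 at a distance of 2 and 0.0028 at 20. When an ID had risen at least 4-fold, the next had done so in 27.2% of cases, against 22.1% of all tested genes, and for falls the shares were 20.0% and 12.8%. In 58 runs of at least 5 IDs every member rose 4-fold, the longest with 10 IDs on D4 (log2 fold changes from 2.05 to 6.74), and 11 such runs fell. The order of IDs was read from their numbers. Tandem copies that share reads were not separated.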
